A study of Rattus norvegicus with 8 samples.

Results

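The transcripts of 10 circadian clock genes, Per1, Per2, Per3, Cry1, Cry2, Arntl, Clock, Nr1d1, Nr1d2 and Dbp, were examined in primary rat thymocytes cultured with or without a synthetic glucocorticoid. Members were taken by name, as every probe that the array assigns to one of these names. They were read by 12 of the 41012 probes on the array, with 3 probes for Per3 and 1 for each other gene. Thymocytes came from adrenalectomized male Sprague-Dawley rats, which lack their own adrenal glucocorticoids, and were taken some time after surgery from thymi pooled from 3 animals per preparation. The rats' age, and the time of day at which the thymi were taken, are not given in the sources used here. Cells were held in culture for 6 hours without hormone (Control, n = 4 arrays) or with 100 nM dexamethasone (Dex, n = 4 arrays), a synthetic agonist of the glucocorticoid receptor under which these cells undergo apoptosis. Cy3-labeled cRNA made from total RNA was hybridized to 1-color Agilent arrays. The study states 3 biological replicates, and nothing in the labels says which of the 4 arrays of a group come from separate preparations, so the p-values measure the spread between these arrays, which may in part be technical.

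The circadian clock is a feedback loop of transcription. The proteins of Clock and Arntl (now named Bmal1 in RefSeq) bind E-boxes and switch on the Per and Cry genes, whose products return to the nucleus and repress them. A second loop runs through Nr1d1 and Nr1d2 (REV-ERB alpha and beta), which repress Arntl at ROR elements, and an output arm runs through Dbp, an activator at D-boxes. Glucocorticoids are known to reset clocks in peripheral tissues, and Per1 is known as a direct target of the glucocorticoid receptor in several of them.

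The results turn on the probe of Per1 and on the 3 probes of Per3, of which 1 was above background. Their sequences, from the array files, are shown so that the reading of each can be traced. In the probes of Per3 that share a transcript, the longest stretch they have in common (22 bases of 60) is in capitals.
Per1 A_44_P114034: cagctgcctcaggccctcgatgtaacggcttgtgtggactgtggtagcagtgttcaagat
Per3 A_44_P196198: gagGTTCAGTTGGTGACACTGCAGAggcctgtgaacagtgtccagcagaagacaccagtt
Per3 A_43_P16143: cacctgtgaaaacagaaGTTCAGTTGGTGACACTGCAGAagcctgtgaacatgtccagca
Per3 A_44_P407318: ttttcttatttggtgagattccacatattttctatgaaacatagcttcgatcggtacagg
In the rn3 build, to which the files refer their probes, the Per1 probe is placed on chromosome 10, between 55881463 and 55882047. That is a stretch of 585 bases for a probe of 60. The first Per3 probe is placed on chromosome 5 between 168163039 and 168163098, and the second between 168163027 and 168163035, next to it. The third Per3 probe is placed between 168194248 and 168194307 on the same chromosome and belongs to a different transcript record. The array gives no other annotation, such as exon or intron, for these positions.

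The loops are wired through promoter motifs, and the windows of Per2 and Arntl are shown because between them they hold the E'-box, the D-box and the ROR element of the loops described above. RefSeq windows of 300 bases (250 before and 50 after a listed start, build GRCr8) were found for 9 of the 10 genes. Matches to the motifs searched are in capitals.
Per2, chr9:99496944-99497243, minus strand: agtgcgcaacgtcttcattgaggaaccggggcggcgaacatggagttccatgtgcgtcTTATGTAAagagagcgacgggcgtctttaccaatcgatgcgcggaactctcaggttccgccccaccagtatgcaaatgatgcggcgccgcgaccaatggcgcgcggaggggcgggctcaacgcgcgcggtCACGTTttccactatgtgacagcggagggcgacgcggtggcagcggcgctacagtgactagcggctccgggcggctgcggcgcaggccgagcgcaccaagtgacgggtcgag
Arntl (Bmal1), chr1:176766078-176766377, plus strand: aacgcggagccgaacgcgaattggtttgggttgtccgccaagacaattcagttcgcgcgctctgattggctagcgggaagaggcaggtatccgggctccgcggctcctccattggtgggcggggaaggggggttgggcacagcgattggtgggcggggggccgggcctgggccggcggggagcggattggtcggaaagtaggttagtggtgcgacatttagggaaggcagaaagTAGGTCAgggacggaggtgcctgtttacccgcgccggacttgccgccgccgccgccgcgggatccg
The window of Per2 held a D-box (TTATGTAA) and an E'-box (CACGTT), and that of Arntl held the core of a ROR element (TAGGTCA). Both strands were searched, and no match overlapped another in these windows. Of 33469 windows of this length in the table, 0.893% held the D-box, 4.83% the E'-box and 2.63% the ROR core. An E-box (CACGTG), present in 6.42% of all windows, was found in 1 of the 2 windows of Nr1d1. The E'-box was also found in the window of Cry2 and in the other window of Nr1d1. A glucocorticoid response element written as GNACANNNTGTNC was present in 0.439% of all windows and in none of the 11 windows of these genes. The window listed for Per1 (chr10:54304126-54304425) lies inside the gene's own RefSeq span, which runs from 54299002 to 54313804, so it does not cover the outer start of the gene. The windows of Per1, Per3, Clock, Nr1d2 and Dbp held none of the motifs.

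None of the 10 clock genes passed the test used across the array. At an adjusted p of 0.05 by limma (Benjamini-Hochberg, over the whole array) 0 of 10 genes were called by their brightest probe, where 0.751% of the brightest probes of all gene names and 0.778% of all probes were called. Of the genes 3 had a higher mean in Dex (Per1, Nr1d1 and Nr1d2) and 7 a lower one, and the median log2 difference was -0.03, beside 0.00033 over all probes. Per1 alone had an unadjusted p below 0.05 by its brightest probe, as did 10.6% of all probes. By the signal to noise statistic that the study's methods name, Per1 was the single gene of the 10 to be called, where 6.79% of all probes were. The statistic was run here on 4 arrays a group, where the study states 3 replicates, and with other permutations. Its calls are therefore not the study's own. A response to the hormone was looked for in other genes, chosen with earlier results of these data known. All 7 genes of a list of known glucocorticoid targets were higher in Dex and 6 were called, with 5 called under the replicate block, 3 under 75th percentile scaling and 0 with slide as a fixed block, which rests on 2 arrays. Among the 6 was Tsc22d3 (GILZ), an anti-inflammatory mediator, which rose by 3.59 on the log2 scale (SE 0.18, adjusted p 0.00015 by limma).

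**Figure D1:**
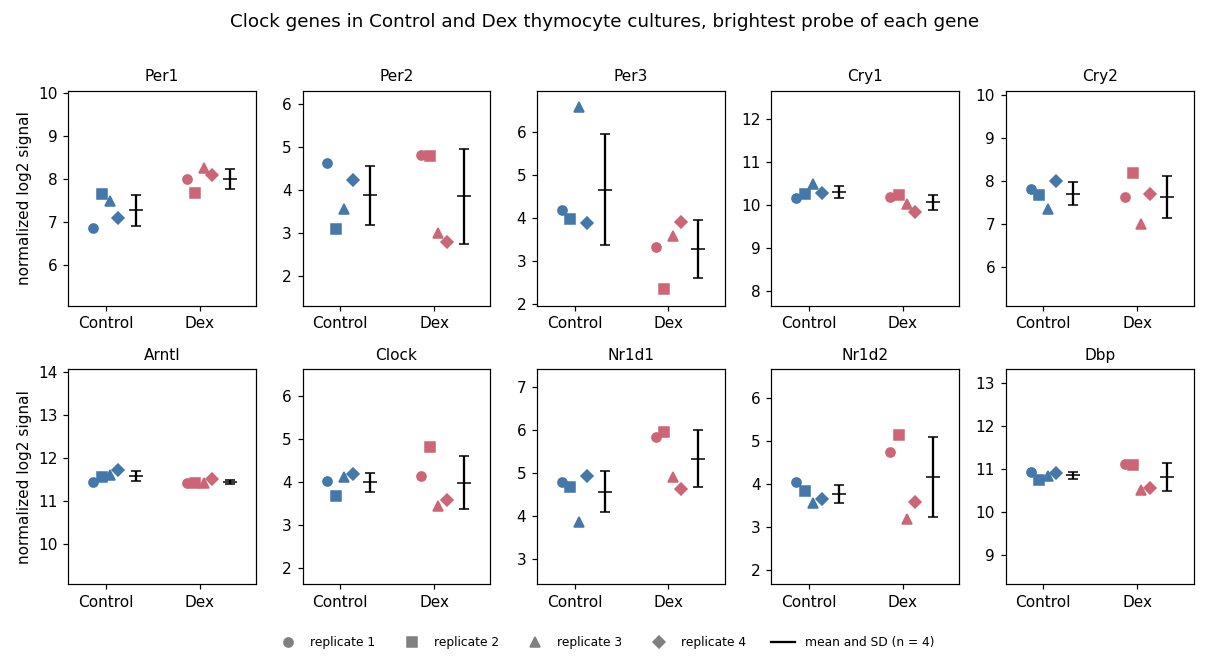
Normalized log2 signal (vertical axis) of the brightest probe of each clock gene in each of the 8 arrays, with Control in blue, Dex in red and the marker shape giving the replicate number; black bars are the mean and SD of 4 arrays. All panels span the same number of log2 units, and Per1 is the one gene of the 10 whose Dex arrays all lie above its Control arrays.

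Among the Period genes, whose proteins carry the repressive arm of the loop, Per1 had the clearest separation. Its normalized log2 signal was 6.86, 7.64, 7.48 and 7.09 in Control replicates 1 to 4. In Dex replicates 1 to 4 it was 7.99, 7.67, 8.25 and 8.09. All 4 Dex arrays were above all 4 Control arrays, with the lowest Dex array just above the highest Control array, a separation with Dex higher that 4.60% of all probes showed. Control arrays averaged 7.27 ± 0.36 and Dex arrays 8.0 ± 0.24 (SD, n = 4 each). This log2 difference of 0.73 had a 95% interval of 0.21 to 1.24, which as a fold is 1.66, between 1.16 and 2.37. limma gave an unadjusted p of 0.011 and an adjusted p of 0.27, so the difference did not pass the threshold. By permutation of the arrays, pooled over probes, the signal to noise statistic of Per1 had a one-sided p of 0.0088. That permutation moves all 8 arrays freely and takes no account of the replicate numbers, and limma with the numbers as a block gave an adjusted p of 0.34. The probe was well above background on all 8 arrays. In bulk RNA of this kind, a change in the number of cells of a type and a change in RNA per cell cannot be told apart.

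The differences of Per1 within replicate numbers were 1.12, 0.03, 0.77 and 0.99 for numbers 1 to 4, so that the second showed almost none. On the one slide that held an array of each group, Dex replicate 3 exceeded Control replicate 1 by 1.38 on the log2 scale. The other slides held arrays of 1 group only, so on them slide and treatment cannot be told apart.

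Per2, the other Period gene of the core loop, had a mean difference near 0 and a wide spread. Its log2 signal was 4.63, 3.11, 3.57 and 4.24 in Control replicates 1 to 4 and 4.84, 4.80, 3.02 and 2.81 in Dex replicates 1 to 4. Dex replicates 1 and 2 were above all Control arrays and Dex replicates 3 and 4 below all of them. Between the groups the log2 difference was -0.02, with a 95% interval of -1.33 to 1.29, so that neither a rise of 2.45-fold nor a fall of 2.52-fold lay outside it. The adjusted p was 0.99 by limma.

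Per3, a Period gene that the core loop can do without, was read above background by 1 of its 3 probes. That probe, A_44_P196198, gave 4.19, 3.99, 6.59 and 3.88 in Control replicates 1 to 4 and 3.33, 2.34, 3.58 and 3.90 in Dex replicates 1 to 4. Control replicate 3 stood well above the other arrays, and the remaining Control arrays and Dex replicate 4 lay close together. This probe was well above background on all 4 Control arrays and on 2 Dex arrays, replicates 3 and 4. Its log2 difference was -1.37 with a 95% interval of -2.84 to 0.09 (adjusted p 0.51 by limma), and it was -0.75 without Control replicate 3 and -0.33 with normexp background correction.

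The other Per3 probes were not well above background on any of the 8 arrays, so they give no level and no fold. Their measured log2 signals ranged from 0.92 to 3.46 for A_43_P16143 and from 0.98 to 2.65 for A_44_P407318.

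Of the cryptochromes, the partners of the Period proteins in repression, neither passed the test. Cry1 gave log2 signals of 10.15, 10.25, 10.48 and 10.28 in Control replicates 1 to 4 and 10.17, 10.22, 10.02 and 9.82 in Dex replicates 1 to 4. The groups overlapped, with Dex replicates 3 and 4 below every Control array. Its log2 difference was -0.23 with a 95% interval of -0.60 to 0.13 (adjusted p 0.69 by limma).

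Cry2 gave 7.83, 7.68, 7.36 and 8.0 in Control replicates 1 to 4 and 7.64, 8.20, 7.02 and 7.72 in Dex replicates 1 to 4. Its highest and its lowest array were both Dex arrays. For Cry2 the log2 difference was -0.07 with a 95% interval of -0.69 to 0.55 (adjusted p 0.95 by limma).

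The activators of the loop were Arntl and Clock. Arntl gave log2 signals of 11.43, 11.55, 11.60 and 11.70 in Control replicates 1 to 4 and 11.40, 11.40, 11.40 and 11.50 in Dex replicates 1 to 4, the narrowest spread among the 10 genes within the Dex group (SD 0.05). Dex was below Control within each of the 4 replicate numbers, by 0.03 to 0.20 on the log2 scale, yet Dex replicate 4 lay above Control replicate 1. For Arntl the log2 difference was -0.14, with a 95% interval of -0.46 to 0.17 (adjusted p 0.77 by limma), which places falls of more than 1.37-fold and rises of more than 1.12-fold outside the interval.

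Clock gave 4.02, 3.68, 4.12 and 4.19 in Control replicates 1 to 4 and 4.15, 4.81, 3.44 and 3.59 in Dex replicates 1 to 4. Dex replicate 2 was the highest array and Dex replicate 3 the lowest. Its group means were 4.00 ± 0.23 in Control and 4.00 ± 0.62 in Dex (SD, n = 4 each), with an interval of the difference of -0.72 to 0.71 on the log2 scale. The probe was not well above background on Dex replicate 1.

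In the second loop, Nr1d1 had a mean difference as large as that of Per1 but with overlap. Its log2 signal was 4.80, 4.69, 3.87 and 4.94 in Control replicates 1 to 4 and 5.84, 5.96, 4.92 and 4.64 in Dex replicates 1 to 4. Dex replicates 1 and 2 were above every Control array, and Dex replicates 3 and 4 lay within the Control range. The log2 difference was 0.77 with a 95% interval of -0.09 to 1.62 (unadjusted p 0.073 and adjusted p 0.54 by limma). Within the shared slide it was 0.12, and without Dex replicates 1 and 2 together it was 0.19. With normexp background correction it was 0.26, where Per1 was at 0.49.

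Nr1d2 gave 4.05, 3.83, 3.57 and 3.65 in Control replicates 1 to 4 and 4.74, 5.14, 3.20 and 3.59 in Dex replicates 1 to 4. As for Nr1d1, Dex replicates 1 and 2 were above every Control array, while Dex replicate 3 was below all of them. The log2 difference was 0.39 with a 95% interval of -0.59 to 1.37 (adjusted p 0.81 by limma), and it turned to -0.33 without Dex replicates 1 and 2. With 1 array left out it ranged from 0.067 (without Dex replicate 2) to 0.73 (without Dex replicate 3). With normexp background correction it was 0.11.

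Dbp, the output activator at D-boxes, gave 10.93, 10.74, 10.84 and 10.90 in Control replicates 1 to 4 and 11.12, 11.08, 10.50 and 10.56 in Dex replicates 1 to 4. All 4 Control arrays lay between the higher and the lower pair of Dex arrays. The log2 difference was -0.04 with a 95% interval of -0.48 to 0.41 (adjusted p 0.97 by limma), so that falls of more than 1.39-fold and rises of more than 1.33-fold lay outside it.

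**Figure D2:**
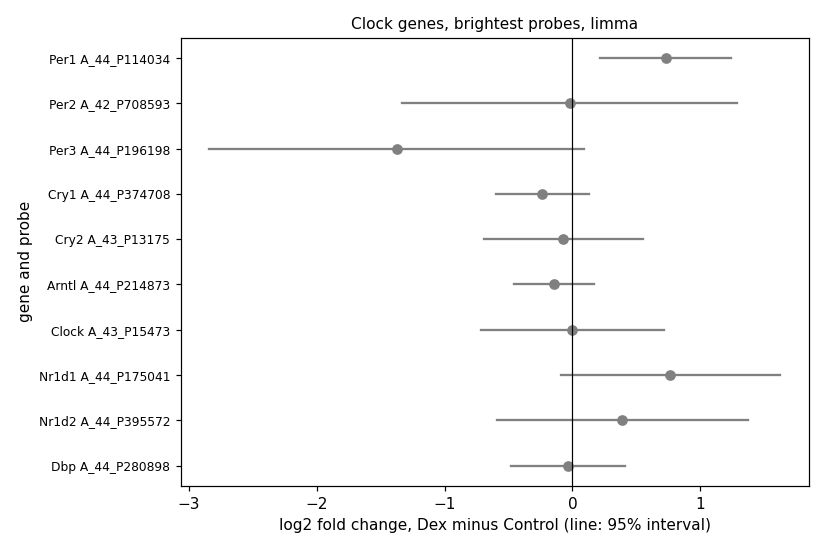
Log2 fold change (horizontal axis, Dex minus Control) of the brightest probe of each of the 10 clock genes, with its 95% interval from limma as a line; none was called. The intervals are narrow for Cry1, Arntl and Dbp and wide for Per2 and Per3, and 1 of the 10 intervals, that of Per1, does not reach 0.

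The Dex arrays varied more among themselves than the Control arrays did. The SD was larger in Dex for 7 of the 10 genes, with a median of 0.55 in Dex and 0.25 in Control on the log2 scale. The same was seen over the whole array, where 75.4% of probes had the larger SD in Dex and the median SDs were 0.50 and 0.28. For 6 genes (Per2, Cry1, Clock, Nr1d1, Nr1d2 and Dbp) Dex replicates 1 and 2 were both above Dex replicates 3 and 4, as was the case for 48.3% of all probes. Dex replicates 1 and 2 also had the fewest probes well above background, 26471 and 24903, where the other arrays had from 28658 to 34473.

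**Figure D3:**
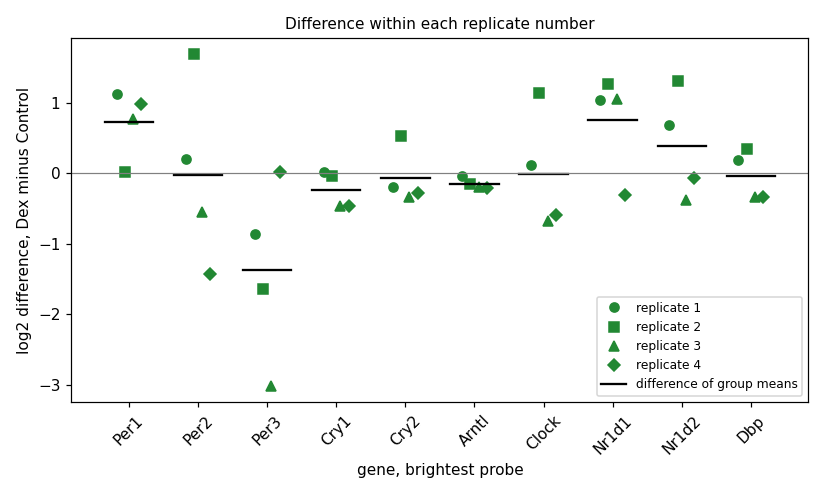
Log2 difference between the Dex and the Control array of the same replicate number (vertical axis) for the brightest probe of each clock gene, with a bar at the difference of the group means. Per1 lies above 0 and Arntl below 0 for all 4 numbers, while the other 8 genes have differences on both sides of 0.

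Without Dex replicates 1 and 2, a choice made after the data were seen that leaves 2 Dex arrays, 6631 probes of the whole array were called in place of 319. Even then 0 of the 10 clock genes were called by limma. Per1 came nearest to the threshold, with a log2 difference of 0.83 and an adjusted p of 0.061. In the same comparison Clock was at -0.42 (adjusted p 0.14), Per2 at -0.87 (adjusted p 0.17), Cry1 at -0.35 (adjusted p 0.16) and Dbp at -0.32 (adjusted p 0.15).

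The genes around the core loop were read from a list of 38 regulators, kinases, cofactors and outputs, of which 32 were on the array. Of these 2 rose and none fell by limma, against the same 0.751% of all gene names, with 21 means higher and 11 lower in Dex and a median log2 difference of 0.14. At an unadjusted p below 0.05 there were 6, beside 10.6% of all probes. By the signal to noise statistic 4 were called higher and 1 lower, beside 6.79% of all probes. The groups did not overlap for 5 of the 32 with Dex higher (Prkaa2 included) and for 1 with Dex lower. Over all probes 4.60% were apart with Dex higher, and the share with Dex lower was not computed. Rora and Rorb, receptors that activate at ROR elements, were not well above background on any array. They count among the higher means, as does the dim Prkaa2, and the dim Ppargc1a counts among the lower. Prkaa2 is also among the 6 with an unadjusted p below 0.05.

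Usp2, a deubiquitinase that is itself a rhythmic output and acts on clock proteins, rose the most of the 32 in the main test. Its log2 signal was 6.98, 6.97, 6.65 and 7.00 in Control replicates 1 to 4 and 8.57, 8.72, 8.35 and 8.69 in Dex replicates 1 to 4, groups far apart. The log2 difference was 1.68 (SE 0.16), a fold of 3.20, with an adjusted p of 0.0041 by limma. It was 0.042 once replicate numbers were blocked, and 0.77 with slide as a fixed block, the setting that ended the call.

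Bhlhe40 (DEC1, named Bhlhb2 on the array), a repressor that competes at E-boxes, rose by 1.57 on the log2 scale (SE 0.25). Its difference exceeded that of Usp2 with normexp (1.18 against 1.15) and with slide as a fixed block (2.06 against 1.37). Its log2 signal was 6.96, 7.33, 7.97 and 7.87 in Control replicates 1 to 4 and 9.31, 9.19, 9.02 and 8.89 in Dex replicates 1 to 4, again without overlap. Its adjusted p was 0.038 by limma, and 0.18 once replicate numbers were blocked. It also lost its call when any 1 of the 8 arrays was left out, with adjusted p from 0.065 to 0.16 by limma and log2 differences from 1.37 to 1.73. The same held under 75th percentile scaling (1.6, adjusted p 0.094) and with slide as a fixed block (2.06, adjusted p 0.62).

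By their brightest probes, the uncalled genes nearest to the threshold were on both sides of 0. A dimmer probe of Id2, A_44_P170710, was nearer still, at 0.73 without overlap of the groups (adjusted p 0.11 by limma). That probe was called with normexp, with slide as a random block and with dim probes left out (adjusted p 0.018, 0.015 and 0.04999). The brightest Id2 probe was at 0.15 (adjusted p 0.85). Timeless, a replication fork protein related by name to the fly clock gene, was lower by a log2 difference of -0.63 without overlap of the groups (adjusted p 0.12 by limma). Nfil3 (E4BP4), the repressor that opposes Dbp at D-boxes, was at 0.66 (adjusted p 0.16), also without overlap. The mitotic kinase Wee1, an E-box controlled output, was at 0.64 (adjusted p 0.26) without overlap by its brightest probe. Of its dimmer probes, A_44_P409975 did not overlap (0.70, adjusted p 0.22) and A_44_P409977 did (0.56, adjusted p 0.60). In other settings the brightest probes of these genes were called by limma. Timeless was called with normexp, with slide as a random block and without Dex replicates 1 and 2 (adjusted p 0.0073, 0.018 and 0.038). Nfil3 was called with normexp and the random block (adjusted p 0.033 and 0.021), and Wee1 with the random block (adjusted p 0.044). Prkaa2, a catalytic subunit of AMP kinase, was well above background on 0 Control arrays and 1 Dex array, so no fold is given (adjusted p 0.43 by limma). Ppargc1a, a coactivator, was well above background on 1 array of each group, and no fold is given for it either (adjusted p 0.60). Ncor1, the corepressor that works with the REV-ERB proteins, was at -0.27 (adjusted p 0.63).

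**Figure D4:**
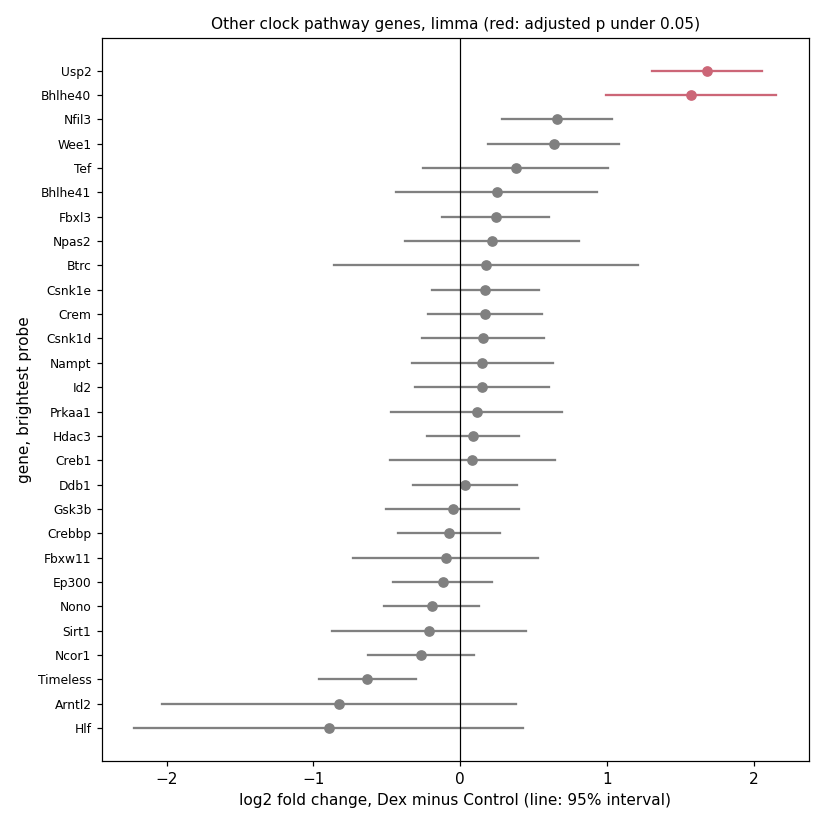
Log2 fold change (horizontal axis, Dex minus Control) of the brightest probe of 28 other clock pathway genes, with its 95% interval from limma; the 4 genes well above background on at most 2 arrays (Rora, Rorb, Prkaa2 and Ppargc1a) are left out, and red marks adjusted p under 0.05. Usp2 at 1.68 and Bhlhe40 at 1.57 stand apart from the rest.

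The 5 array genes whose values followed those of Per1 most closely were sought among 15400 probes well above background on all 8 arrays. They were RGD1564093 (Pearson r 0.97), LOC684090 (0.97), LOC497978 (0.96), Ptpn18 (0.96) and Zfp384 (0.96). The correlations are over 8 arrays of 2 treatments, hybridized on 3 slides, and are given as a description. Of the 5, Ptpn18, a tyrosine phosphatase, had the largest log2 difference, 0.88 (adjusted p 0.11 by limma).

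Markers of double positive thymocytes, the main cell of the thymus, were present. Of 9 on the array 8 were well above background on all arrays, and 0 were called by limma. An unadjusted p below 0.05, seen for 10.6% of all probes, was found for 3. These were Ptcra, the pre-T cell receptor alpha chain, at -0.61 on the log2 scale, the recombinase gene Rag1 at -0.59, and Cd8b, read on 3 Control arrays, at 0.52. The other Rag1 probe, well above background on all arrays, was at -0.22 (adjusted p 0.74 by limma). Ptcra was also called by the signal to noise statistic, as were 6.79% of all probes. Its groups did not overlap, with Dex lower, a separation whose share of all probes was not computed. Of 8 macrophage markers 0 were called by limma and 0 by the signal to noise statistic by their brightest probes, with 4 means higher and 4 lower and a median log2 difference of 0.00038. The complement genes C1qa, C1qb and C1qc were at 0.72, 0.84 and 0.97, with an unadjusted p below 0.05 for the last 2, and Csf1r was at 0.12, while Cd14 was at -0.77, Cd163 at -0.24, Adgre1 at -0.15 and Cd68 at -0.12. A dimmer C1qc probe was called by the signal to noise statistic. The log2 of the summed signals of the macrophage markers ranged from 9.82 to 10.22 in Control and from 10.19 to 10.87 in Dex. In such a sum the brightest markers weigh most. For B cells 3 of 5, for stromal cells 4 of 9 and for erythroid cells 2 of 4 markers were on the array. The log2 of their summed signals was 6.21 to 7.04, 9.42 to 10.11 and 7.95 to 10.33 in Control. In Dex it was 6.21 to 7.23, 8.98 to 10.48 and 7.94 to 11.16. Of these markers 0 were called by limma, with an unadjusted p below 0.05 for 1, the stromal marker Pdgfrb. Pdgfrb was at 1.72 on the log2 scale (adjusted p 0.16) and well above background on 2 Control and 3 Dex arrays. The signal to noise statistic called it. The other stromal markers went both ways, Col1a1 at 0.57 (with a dimmer probe at -0.999), Col3a1 at 0.68 and Col1a2 at -0.76. Marker counts changed in some settings. Ptcra was called with normexp, with slide as a random block and without Dex replicates 1 and 2, and Pdgfrb with the random block. Without Dex replicates 1 and 2, Rag2, C1qb, C1qc and the stromal marker Col1a1 were also called. The part of such cells in the values of the clock genes was not tested.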

How the data were processed

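Cy3-labeled cRNA, made by the authors from total RNA of thymocyte cultures, was hybridized to 8 Agilent Whole Rat Genome arrays (4 Control, 4 Dex). The authors extracted spot intensities with Feature Extraction (version 9.5.3.1), and the deposited intensity values are background subtracted but not normalized between arrays. The authors also deposited a table of quantile normalized log2 values per probe. Here, outlier spots were left out, intensities were quantile normalized on the log2 scale and spots of a probe were summarized by median polish. The result correlated with the deposited log2 values at 0.999999 or above in each array. The deposited output also holds flags for spots well above background, and no spot of these probes was saturated. Fold changes are within a probe. Signals of different probes were set against each other only to pick the brightest probe and summed only over marker lists.

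limma (version 3.58.1, R version 4.3.3; lmFit and eBayes, two-sided, all 8 arrays, no block) was used with Benjamini-Hochberg adjustment over 41012 probes at 0.05. The brightest probe, by its mean over all arrays, stood for a gene. The signal to noise statistic was tested over 70 assignments of the arrays, at a one-sided p of 0.01 and a fold of 1.2. All probes of the 10 clock genes were named, as were called pathway genes, the 6 uncalled ones with the smallest p, and the 5 genes most like the clock gene of smallest p. The clock genes and the lists were chosen with earlier results of these data known. Array scripts were tested on simulated data.

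Whether equal replicate numbers pair the arrays was checked from the correlation of their deviations from the group means. It was 0.40, 0.13, 0.55 and 0.18 for numbers 1 to 4. Pairs by number were used only in the replicate block and in the differences within replicate numbers. The main test has no block. The pairing comes from the data alone, and some unlike numbers correlated as strongly or more strongly. Control replicate 1 correlated with Dex replicate 2 at 0.40, and Control replicate 2 with Dex replicate 1 at 0.19. For Control replicate 3 with Dex replicate 4 it was 0.39. Pairing by number is therefore not settled. The number of arrays limits the precision. One slide held Control replicate 1 and Dex replicate 3, another the remaining Control arrays and another the remaining Dex arrays. Alternatives were 75th percentile scaling, normexp background (offset 50), dim probes left out, the deposited values, replicate or slide as a block, each array left out, the mean of a gene's probes and, added after seeing the data, Dex replicates 1 and 2 left out. Other genes of the array are not reported here. Promoter sequences are from RefSeq (GRCr8).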

Additional observations from a re-analysis of the deposited data

Results flagged for a closer look

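Among 40 groups of 4 arrays examined, 4 held an array far from the other arrays of its group by Dixon's ratio (the gap to the nearest array over the group's range). Chance flags about 1 in 20 groups. The brightest Per3 probe was at 6.59 on the log2 scale in Control replicate 3, against 3.88 to 4.19 in the other Control arrays, a ratio of 0.888. Arntl was at 11.50 in Dex replicate 4, against 11.40 in each of the other Dex arrays, a ratio of 0.943 within a very narrow range. Usp2 was at 6.65 in Control replicate 3, against 6.97 to 7.00, a ratio of 0.911. Prkaa2, whose probe was well above background on 1 of 8 arrays, was at 3.1 in Dex replicate 3, against 2.55 to 2.60, a ratio of 0.911.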

How the results depend on the processing

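The count of clock genes called by limma was 0 in each setting run, including the replicate block and the random block for slide, and 1 (Per1) by the signal to noise statistic. The log2 difference of Per1 ranged from 0.49 to 1.38 over 17 limma settings, and its adjusted p from 0.061 to 0.77. Nr1d1 stayed above 0 (0.12 to 1.03), and Cry1 and Arntl below 0 (-0.35 to -0.13 and -0.19 to -0.04). Some differences changed sign. Those of Per2, Cry2, Clock and Dbp were near 0 as reported, while those of Per3, Nr1d2 and Ncor1 were -1.37, 0.39 and -0.27. Per2 was at 0.0030 with normexp, 0.25 with slide as a random block, and from -0.33 to 0.34 with 1 array left out, positive without Control replicates 1 or 4 and Dex replicates 3 or 4. Cry2 was at 0.052 with the random block and from -0.25 to 0.14 with 1 array left out, positive without Control replicate 4 or Dex replicate 3. Clock was at 0.094 with the random block and from -0.25 to 0.19 with 1 array left out, positive without Control replicates 1, 3 or 4 and Dex replicates 3 or 4. Dbp was at 0.015 with 75th percentile scaling, 0.030 with the random block, and from -0.14 to 0.070 with 1 array left out, positive without Dex replicates 3 or 4. Per3 was at 0.051 as the mean of its probes, of which 2 were not well above background on any array, and Nr1d2 at -0.85 with slide as a fixed block and -0.33 without Dex replicates 1 and 2. Ncor1 was at 0.063 with slide as a fixed block. With that block Per2 was at -1.61, Cry2 at -0.81, Clock at -0.58 and Dbp at -0.43. The fixed block leaves the comparison to 2 arrays.

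The count of other pathway genes called was 2 as reported, 1 with 75th percentile scaling, 4 with normexp, 1 with the replicate block, 0 with slide as a fixed block, 5 with slide as a random block, 4 without Dex replicates 1 and 2, 5 by the signal to noise statistic, and 1 whichever single array was left out. Usp2 was called in 16 of 17 limma settings, all but slide as a fixed block, and Bhlhe40 in 6 of 17. The count of probes called was 319 as reported, 166 with 75th percentile scaling, 915 with normexp, 562 with dim probes left out, 81 with the replicate block, 1 with slide as a fixed block, 1838 with slide as a random block, 6631 without Dex replicates 1 and 2, and 2784 by the signal to noise statistic. With 1 array left out it ranged from 100 (Control replicate 4) to 245 (Dex replicate 3), and it was 134, 115 and 115 without Control replicates 1, 2 and 3 and 136, 168 and 160 without Dex replicates 1, 2 and 4. The cause was not tested. The replicate block changed no call other than that of Bhlhe40 among the genes named. Dim probes limit Per3, Clock, Prkaa2 and Ppargc1a, where some arrays gave no signal well above background.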
